A study of Mus musculus with 25 samples.

Results

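Among 24221 mouse genes with a deposited value, 1014 (4.19%) carried H3K27me3 at days 4 and 8 of a chemical reprogramming experiment and little H3K4me3 at day 8. They were chosen as the gene regions with at least 3.5 RPM (reads-per-million, scaled to each library's total) of H3K27me3 at day 4 (D4) and at day 8 (D8) and below 8 RPM of H3K4me3 at D8. The values that chose them are therefore given as a description, and nothing is read from them. A further 565 genes (2.33%) met both H3K27me3 thresholds but had 8 RPM or more of H3K4me3 at D8, and serve as the nearest comparison. Of all genes, 7.74% reached the H3K27me3 threshold at D4, 10.4% reached it at D8, and 47.3% lay under the H3K4me3 threshold.

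The marks were measured by ChIP-seq, in which chromatin fragments bound by an antibody are sequenced. The D0 cells were fibroblasts labelled tdMEFs, grown with fetal bovine serum at 20% oxygen. The D4 and D8 cells had spent 4 or 8 days at 5% oxygen in the serum-free M9 medium, which contains CHIR99021, LDN193189, A83-01, Hh-Ag1.5, retinoic acid, SMER28, RG108, Parnate and bFGF. Parnate inhibits the H3K4 demethylase LSD1 and RG108 inhibits DNA methyltransferases, and both were present at D4 and D8 and absent at D0. Medium, oxygen and time in culture cannot be told apart in this design. Every mark and stage has 1 library, so no value has a replicate, no test between stages was possible, and each difference describes these libraries.

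H3K27me3 is written by Polycomb repressive complex 2 (PRC2) and is found over the promoters of developmental regulators in cells that do not use them. H3K4me3 marks active promoters, and in stem cells it also lies beside H3K27me3 at promoters called bivalent. H3K27ac marks active promoters and enhancers, and H3K4me1 is spread over enhancers and the flanks of promoters. In fibroblasts, the best known Polycomb targets are regulators of other lineages, such as neural, endodermal and muscle genes.

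The 12 libraries used imply between 1582817 and 34856379 reads. The H3K27me3 threshold of 3.5 RPM equals 17.9, 64.5 and 40.1 reads in the D0, D4 and D8 libraries, and 1 read is worth 0.632 RPM in the shallowest library, H3K27ac at D0. The 8 fibroblast marker genes had a median H3K4me3 of 47.1 RPM at D0 and 78.6 RPM at D8, and none of them was a member. The 4 macrophage markers had at most 2.22 RPM of H3K4me3 at D0, and the 4 endothelial markers at most 4.12 RPM. The 5 Y-linked genes, taken relative to autosomal genes, had an H3K27me3 level of 0.679 at D0, 0.131 at D4 and 0.194 at D8. The X-linked genes had 0.485, 0.855 and 0.860 in the same order, so the D0 library stood apart from the later ones on both sex chromosomes. The Y-linked level was highest at D0 in the other marks as well, with 1.29, 0.484 and 0.347 for H3K4me3, 0.952, 0.311 and 0.286 for H3K27ac, and 0.590, 0.187 and 0.225 for H3K4me1. The cause was not tested, and this difference between the D0 cells and the later ones stands beside every comparison with D0.

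The start regions of 4 members are printed as examples of sequences in the class, and their numbers of CG differ. They were chosen after their values were seen, each has a single entry in the RefSeq promoter table, and each spans 250 bases before to 50 bases after the annotated start in build GRCm38.p6. The window that the authors counted around each gene is not given in the sources used here, so the printed bases are the annotated start and not necessarily the measured region. Capitals mark every CG, a palindrome that reads the same on both strands. Otp, a homeobox regulator of hypothalamic neurons, lies at chr13:94875386-94875685 (plus strand). Gad1, which encodes a GABA-synthesizing enzyme, lies at chr2:70561879-70562178 (plus strand). Nkx2-5, a homeobox regulator of the heart, lies at chr17:26841516-26841815 (minus strand). Olfr1412, an olfactory receptor gene, lies at chr1:92588082-92588381 (plus strand).
Otp: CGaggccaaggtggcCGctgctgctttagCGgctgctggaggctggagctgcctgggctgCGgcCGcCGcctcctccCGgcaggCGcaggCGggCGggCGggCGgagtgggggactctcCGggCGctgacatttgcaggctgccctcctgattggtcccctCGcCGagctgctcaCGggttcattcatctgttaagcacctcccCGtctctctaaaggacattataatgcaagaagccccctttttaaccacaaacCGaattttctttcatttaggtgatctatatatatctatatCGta
Gad1: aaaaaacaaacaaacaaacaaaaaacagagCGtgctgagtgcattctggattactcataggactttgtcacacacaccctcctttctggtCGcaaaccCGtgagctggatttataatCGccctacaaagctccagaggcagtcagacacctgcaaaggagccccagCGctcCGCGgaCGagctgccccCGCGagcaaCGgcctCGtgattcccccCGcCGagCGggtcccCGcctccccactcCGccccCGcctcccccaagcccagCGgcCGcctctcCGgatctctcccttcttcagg
Nkx2-5: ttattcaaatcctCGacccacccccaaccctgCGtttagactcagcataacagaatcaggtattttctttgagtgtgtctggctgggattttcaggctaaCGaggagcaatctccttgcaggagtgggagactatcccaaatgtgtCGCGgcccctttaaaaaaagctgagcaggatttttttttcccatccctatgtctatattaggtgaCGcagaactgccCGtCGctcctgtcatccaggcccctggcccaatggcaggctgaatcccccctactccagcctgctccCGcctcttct
Olfr1412: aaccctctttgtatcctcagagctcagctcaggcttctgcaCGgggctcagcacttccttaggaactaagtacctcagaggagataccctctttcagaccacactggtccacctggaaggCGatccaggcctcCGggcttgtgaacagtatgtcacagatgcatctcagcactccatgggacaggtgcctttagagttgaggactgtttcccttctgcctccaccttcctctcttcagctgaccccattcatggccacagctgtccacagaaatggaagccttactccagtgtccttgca
The Otp sequence holds 20 CG and the Gad1 sequence 21, and 26.5% and 24.8% of the 32851 entries in the promoter table hold at least as many. Nkx2-5 has 9 CG, a number that 45.8% of entries reach, and Olfr1412 has 3, which 76.7% reach. The regulators Olig2 and Lhx8, looked at but not printed, have 25 and 4 CG, which 18.4% and 68.6% of entries reach. A low number of CG is thus not particular to the receptor gene. A CG of any number was present in 94.6% of entries. The 4 printed sequences do not stand for the class, and no share over it is given because only 72.0% of the members have an entry in the table.

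Of the 10 members with the highest mean H3K27me3 at D4 and D8, Otp, Lhx8 and Tbx20 encode regulators of cell identity. Otp had 9.0, 9.71 and 11.5 RPM of H3K27me3 at D0, D4 and D8, the last with a 95% Poisson interval of 9.63 to 13.7 RPM. Lhx8, a LIM homeobox regulator of forebrain cholinergic neurons, had 9.39, 8.24 and 11.1 RPM. In both genes the D0 interval overlapped those of D4 and D8. The T-box heart regulator Tbx20 had 8.02, 9.76 and 9.77 RPM of H3K27me3 at D0, D4 and D8. H3K4me3 at these genes was low in every library: Otp had 1.74, 2.52 and 0.861 RPM, and Tbx20 had 2.14, 3.61 and 2.38 RPM. The Poisson intervals here cover counting error only, since reads amplified by PCR without molecular identifiers are not independent molecules.

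Some of the highest values came from a single stretch of chromosome 1. Trpm8, which encodes a cold-sensing ion channel, had 5.87, 10.8 and 13.1 RPM of H3K27me3 at D0, D4 and D8. Its neighbours Mroh2a and Ugt1a1, the latter a bilirubin-conjugating enzyme, had 10.8 and 12.3 RPM at D8. They also had high values in the other marks. Mroh2a had 9.66 RPM of H3K27ac at D8 and 7.94 RPM of H3K4me1 at D0, against a median over members of 1.53 and 1.75 RPM. Trpm8 and Mroh2a were the only 2 members (0.197%) with 8 RPM or more of H3K4me3 at D0. Of all genes 37.7% had as much, and of the genes with H3K27me3 and H3K4me3 8.85% did. The rule holds members below 8 RPM at D8, so the low count is not read as a trait of the class. Input libraries were not analysed here, so whether this stretch has high background was not tested.

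**Figure D1:**
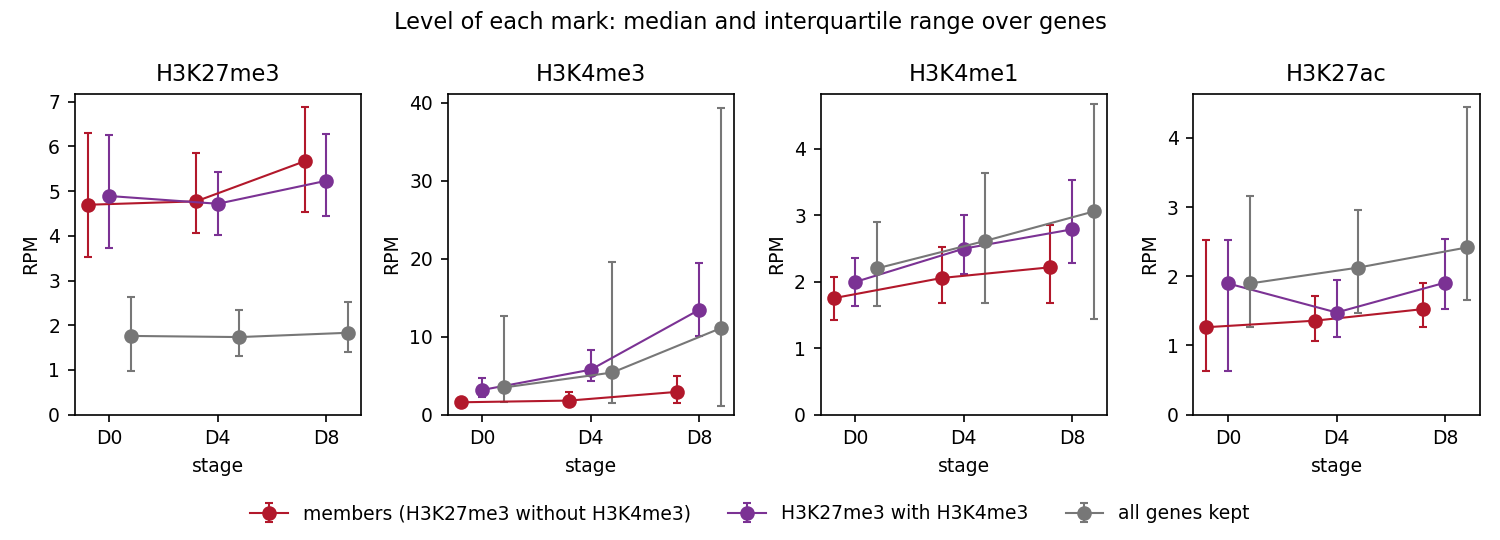
Median (points) and interquartile range over genes (bars) of each mark in RPM at D0, D4 and D8, for the members, the genes with H3K27me3 and H3K4me3, and all genes kept, with 1 library per point. The H3K27me3 medians of the members lie between 4.70 and 5.67 RPM, and their H3K4me3, H3K4me1 and H3K27ac medians lie below those of all genes. The rule set limits on H3K27me3 at D4 and D8 and on H3K4me3 at D8, so these levels are a description only. The genes with H3K27me3 and H3K4me3 also lie below all genes in H3K4me1 at every stage. The same holds for their H3K27ac at D4 and D8 and their H3K4me3 at D0.

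Most members had reached the H3K27me3 threshold in the D0 library as well. At D0, a library the rule did not use, 771 of 1014 members (76.0%) had at least 3.5 RPM of H3K27me3, where 13.1% of all genes did. Among autosomal members the share was 76.6%. The median member had 4.70, 4.77 and 5.67 RPM at D0, D4 and D8, where the median gene had 1.76, 1.74 and 1.83 RPM. The median member ranked at percentile 94.8 of the D0 library, and 35 members (3.45%) ranked at or below the middle. The genes with H3K27me3 and H3K4me3 had a D0 median of 4.89 RPM and 452 of 565 at 3.5 RPM or more. Across the 1014 members, H3K27me3 at D0 and D8 had a Spearman correlation of 0.54. It was 0.48 over all genes and 0.38 over the genes with H3K27me3 and H3K4me3. Each is a description over genes that share 2 libraries.

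At the top of the D0 range stood Spag6l, a gene for a protein of motile cilia, with 15.7, 6.40 and 6.19 RPM at D0, D4 and D8. Dbx1, a homeobox gene of spinal interneuron progenitors, followed with 14.5, 7.81 and 9.51 RPM, and Paupar, a noncoding RNA gene beside Pax6, had 13.5, 6.89 and 7.94 RPM. Cdh1, which encodes the epithelial adhesion protein E-cadherin, had 12.1, 5.86 and 7.94 RPM. These genes were picked for their D0 value, in the shallowest of the H3K27me3 libraries, so that a D0 value above the later ones is not read as a difference. The Poisson interval of the D0 value of Spag6l, 12.4 to 19.5 RPM, lay clear of the later ones.

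At the other end, 243 members were below 3.5 RPM at D0, and in 44 of them the upper Poisson bound was below it too. That bound was below 3.5 RPM in 13157 of all 24221 genes. The same held for 14 of the 565 genes with H3K27me3 and H3K4me3. Cntn2, which encodes an axonal adhesion protein, had 0.783 RPM at D0, which is 4 reads with an interval of 0.213 to 2.00 RPM, then 3.80 RPM at D4 and 4.97 RPM at D8. Mrap2, an accessory protein of melanocortin receptors, had 0.783, 3.85 and 4.80 RPM. Gm38671 had the lowest D0 value, 0.391 RPM, and 3.69 and 3.66 RPM later. In 30 members the D0 interval lay below those of both D4 and D8, and in 8 it lay above both, where 1.26% and 1.18% of all genes did so. Since the rule required high values at D4 and D8, nothing is read from the former count. The 30 included Reln, which encodes a secreted guide of neuronal migration, with 2.74, 6.83 and 6.89 RPM, and Slc18a2, the vesicular monoamine transporter, with 1.76, 4.88 and 6.37 RPM. Camkv and the synaptic vesicle gene Sv2b were also among them. The 8 included Sst, which encodes somatostatin, with 11.2, 4.61 and 6.19 RPM.

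Measured as log2 ratios with a pseudocount of 1.30 RPM, 42 members were at least 2-fold higher in H3K27me3 at D8 than at D0 (4.22% of all genes compared) and 1 was at least 2-fold lower (1.54%). The median over members was 0.21. Over all genes compared it was 0.00295, on the same log2 scale. The rule used the D8 library, so these counts describe the members only.

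**Figure D2:**
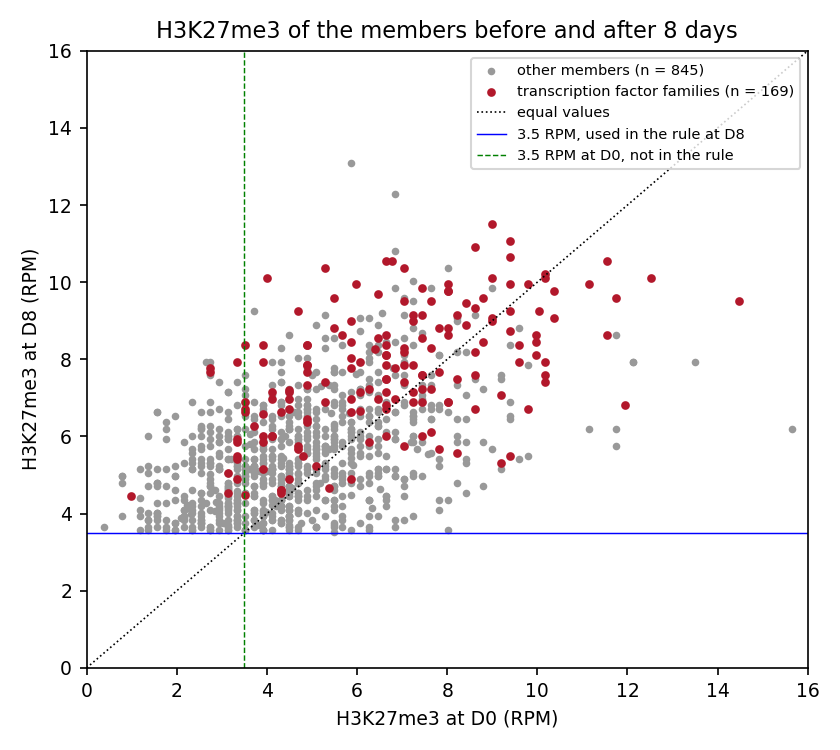
H3K27me3 in RPM of each member at D0 (x axis) and D8 (y axis), with the 169 transcription factor genes in red and the other members in grey. The D8 axis is bounded at 3.5 RPM by the rule, whereas 771 of the 1014 points lie at or right of 3.5 RPM on the D0 axis.

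Transcription factor families made up 169 of the members (16.7%), where they make up 2.34% of the genes in the table and 17.7% of the genes with H3K27me3 and H3K4me3. The share is thus not particular to the members, and it was 27.5% where the Poisson bounds had to clear every threshold. The families were defined by gene symbol, and genes outside them were left unclassified, which leaves 508 members with no family. Of 566 transcription factor genes in those families, 29.9% were members and a further 100 had H3K27me3 with H3K4me3. At D0, 158 of the 169 (93.5%) had at least 3.5 RPM of H3K27me3. Transcription factors made up 20.5% of the members above that value at D0 and 4.53% of those below it. Their median H3K27me3 was 6.65, 6.45 and 7.76 RPM at D0, D4 and D8, above the medians of the whole class at each stage.

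The Nkx homeobox family, which specifies heart, gut and ventral neural tissue, had 11 of 14 genes as members and 2 more with H3K4me3. Nkx2-5 had 11.5, 7.43 and 10.6 RPM of H3K27me3 at D0, D4 and D8, and at most 0.832 RPM of H3K4me3 in any stage. Nkx2-1, a regulator of lung, thyroid and ventral forebrain, had 4.01, 7.08 and 10.1 RPM of H3K27me3 at D0, D4 and D8. Nkx2-6 had 8.80, 7.59 and 9.59 RPM. All 11 members had at least 3.5 RPM at D0.

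The Pax genes pattern the nervous system and several organs, and 7 of 9 were members, with 2 more carrying H3K4me3 as well. Pax2 had 8.02, 6.89 and 6.89 RPM of H3K27me3, and Pax5, a B cell regulator, had 7.24, 7.38 and 7.15 RPM. Pax6, a regulator of eye and neural progenitors, had 6.85, 7.10 and 7.76 RPM. These 3 genes lay between 6.85 and 8.02 RPM in every library. Their H3K4me3 at D8 differed, with 7.31 RPM at Pax6, close to the threshold of 8 RPM, and 0.717 RPM at Pax5.

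The Hox genes, which set position along the body axis, were split the other way. Of 39 genes, 8 were members and 21 carried both marks. The members were Hoxb1, Hoxb13, Hoxc9 to Hoxc12, Hoxd1 and Hoxd4. Hoxc12 had 11.2, 7.75 and 9.94 RPM of H3K27me3, and Hoxb13 had 7.43, 7.43 and 7.59 RPM. Hoxc9 had 5.62, 1.08 and 3.87 RPM of H3K4me3 at D0, D4 and D8.

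Basic helix-loop-helix factors include the proneural genes, and 26 of 66 were members. Sim1, a regulator of hypothalamic neurons, had 10.4, 8.68 and 9.77 RPM of H3K27me3. Neurod2, a neuronal differentiation gene, had 8.02, 6.45 and 9.77 RPM, and Neurog2, a proneural gene, had 7.63, 6.89 and 8.28 RPM. The neural progenitor gene Olig2 had 7.04, 6.83 and 7.85 RPM of H3K27me3 with H3K4me3 of 1.27, 1.44 and 5.36 RPM. The muscle regulator Myod1 had 3.91, 4.72 and 6.02 RPM of H3K27me3. Neurod2 and Neurog2 were named after their values were seen.

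Among the other families, 45 of 97 further homeobox genes, 11 of 44 forkhead genes, 5 of 12 LIM homeobox genes, 5 of 16 T-box genes and 5 of 19 Sox genes were members. Foxe1, a thyroid regulator, had 10.2, 7.92 and 10.2 RPM of H3K27me3. Sox17, a regulator of endoderm, had 9.98, 8.68 and 8.63 RPM, and Sox1, a marker of neural stem cells, had 6.07, 6.67 and 7.15 RPM. Of 5 neural stem cell markers, Olig2, Sox1 and Pax6 were members, and Sox2 carried H3K27me3 together with 16 RPM of H3K4me3 at D8. Nes was in neither class, with 39.6 RPM of H3K4me3 and 1.48 RPM of H3K27me3 at D8.

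**Figure D3:**
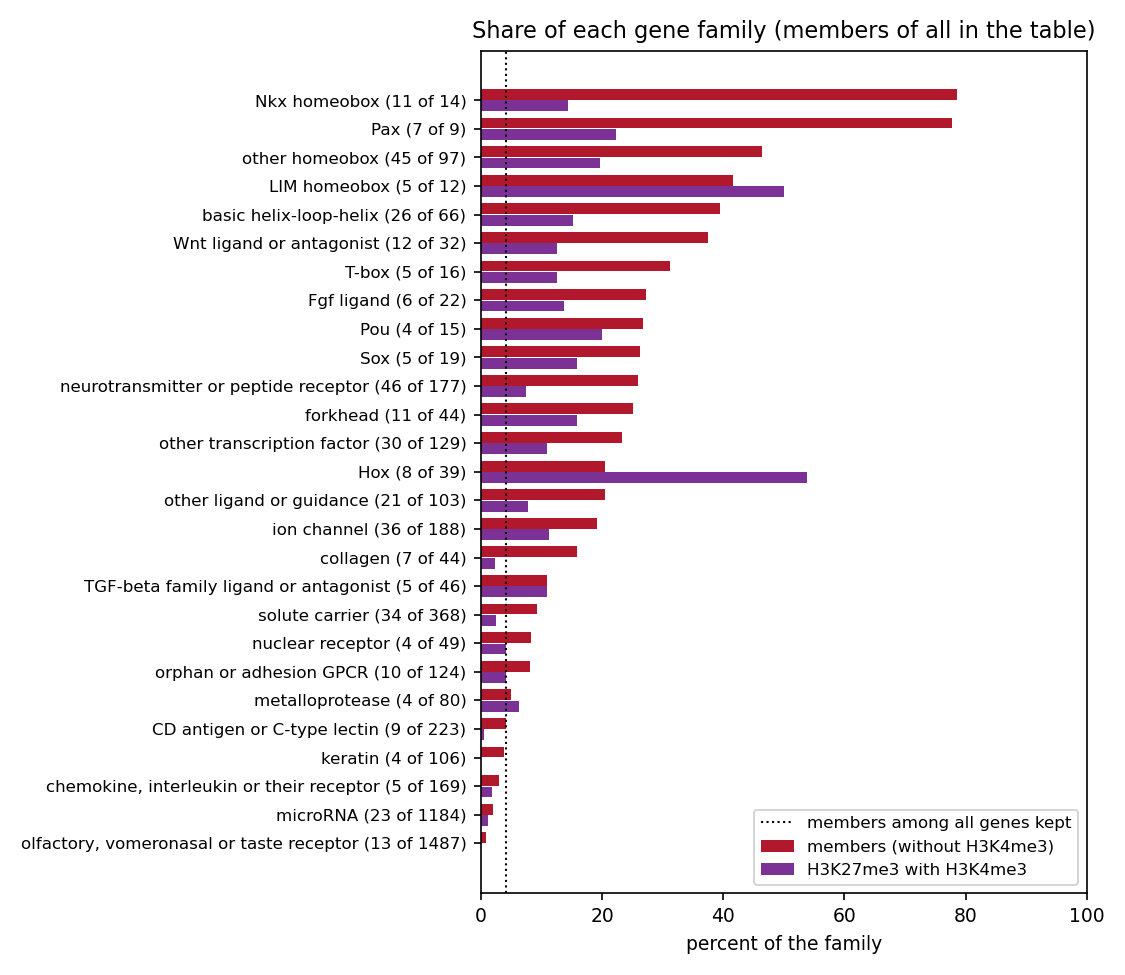
Percent of each gene family that belongs to the members (red) or to the genes with H3K27me3 and H3K4me3 (purple), for families with at least 4 members. The dotted line is the 4.19% of all genes that are members, and Nkx and Pax genes lie farthest from it.

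Secreted signals were members in 44 of 203 cases (21.7%). Of 32 Wnt ligands and antagonists, 12 were members, among them Wnt3, with 7.83, 5.64 and 6.80 RPM of H3K27me3, and Wnt3a, with 6.46, 4.88 and 7.41 RPM. The Wnt antagonist Dkk1 had 7.24, 5.80 and 6.54 RPM. Of 22 Fgf ligands 6 were members, and Fgf8, a patterning signal of the midbrain and limb, had 6.26, 5.91 and 8.37 RPM. The hedgehog ligands Shh and Ihh had 7.24 and 8.72 RPM at D8. All 6 Fgf members had at least 3.5 RPM at D0.

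Receptors, channels and transporters, counted for all tissues, formed the next group. Of 177 receptors for neurotransmitters and peptides 46 (26.0%) were members, of 188 ion channels 36 were, and of 368 solute carriers 34 were. Chrna5, a nicotinic acetylcholine receptor subunit, had 7.63, 6.02 and 7.24 RPM of H3K27me3 at D0, D4 and D8. Slc32a1, the vesicular GABA transporter, had 5.48, 6.13 and 8.55 RPM, and Slc6a5, the neuronal glycine transporter, had 7.43, 7.21 and 8.68 RPM. The GABA-synthesizing enzymes were members as well, with 7.63, 6.78 and 9.85 RPM at Gad1 and 6.26, 8.30 and 8.02 RPM at Gad2, which were named after their values were seen. By contrast, 13 of 1487 olfactory, vomeronasal and taste receptors (0.874%) were members. The genes Olfr1410, Olfr1411 and Olfr1412 lie side by side on chromosome 1, with H3K27me3 of 3.66 to 4.71 RPM and H3K4me3 of at most 1.03 RPM at D8.

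Of 1184 microRNA genes, 23 were members, and mature sequences of 18 of these were in the RefSeq table. The 6 printed here belong to members in Hox clusters, in neural lineages or next to other members, with the seed (bases 2 to 8) in capitals. Mir196a-1 and Mir196a-2 share 1 mature sequence. The others have different seeds.
miR-196a-5p: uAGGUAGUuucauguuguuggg
miR-10b-5p: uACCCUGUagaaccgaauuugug
miR-9-5p: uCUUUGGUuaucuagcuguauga
miR-137-3p: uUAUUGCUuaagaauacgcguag
miR-375-5p: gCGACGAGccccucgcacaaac
let-7k: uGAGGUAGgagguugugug
Mir196a-2, inside the Hoxc cluster on chromosome 15, had 8.41, 7.86 and 8.20 RPM of H3K27me3, and Mir196a-1, in the Hoxb region of chromosome 11, had 4.89, 6.24 and 7.24 RPM. Mir10b, beside Hoxd4, had 6.07, 6.13 and 7.24 RPM, with 7.57 RPM of H3K4me3 at D8. Mir9-3 had 5.48, 6.94 and 6.89 RPM and Mir137 4.50, 6.34 and 6.54 RPM, and both produce microRNAs known from neural progenitors and neurons. Mir7k had 0.783, 3.63 and 3.92 RPM, so that its D0 value was among the lowest of all members. Mir6236 had 3.72, 4.93 and 9.24 RPM of H3K27me3 and 19.6, 3.96 and 15.8 RPM of H3K27ac, the highest H3K27ac of the class at D0 and D8. The genes Mir124a-1 and Mir124a-2 were members too.

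Members lay together in places. Within 50 kb of each other, 21 groups of 3 or more were found, and at 5 kb the annotated members formed 953 loci, so that 112 members share a locus with another and may share reads. The largest groups had 6 members. On chromosome 1, Cdk5r2, Fev, Cryba2, Mir375, Ccdc108 and Ihh had H3K27me3 of 4.30 to 6.46 RPM at D0 and 5.76 to 8.72 RPM at D8. On chromosome 15, Hoxc12, Hotair, Hoxc11, Hoxc10, Mir196a-2 and Hoxc9 had 4.89 to 11.2 RPM at D0 and 8.20 to 9.94 RPM at D8. Hotair is a noncoding RNA gene within the Hoxc cluster.

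On chromosome 5, the pancreas regulator Pdx1 and the gut regulator Cdx2 lay beside Mir7k and Urad. Pdx1 had 7.43, 6.45 and 9.85 RPM of H3K27me3 and Cdx2 had 6.65, 5.91 and 8.63 RPM. Urad had 1.76, 3.85 and 4.27 RPM. The neighbours thus ranged from 0.783 to 7.43 RPM at D0. Other groups held the nicotinic receptor genes Chrna5, Chrna3 and Chrnb4, the ligand genes Fgf3, Fgf4 and Fgf15, and Paupar with Pax6.

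Chromosome X held 13 members (1.28%), where it holds 4.31% of the genes, and chromosome Y held none. Of the 565 genes with H3K27me3 and H3K4me3, 1 (0.177%) lay on chromosome X. A low X share is thus not particular to the members. Their X share depended on the H3K27me3 threshold, with 2.15% at 3 RPM and 0.539% at 4 RPM. It was 0.569% where the Poisson bounds had to clear every threshold. Of the 13, 3 had at least 3.5 RPM of H3K27me3 at D0, among them Pcsk1n and Kis2. The caudal-type homeobox gene Cdx4 had 0.978, 4.50 and 4.45 RPM at D0, D4 and D8. These D0 values stand beside the lower X-linked H3K27me3 of the whole D0 library, and their part in the count was not tested. Chromosome 2 held 119 members (11.7%), where it holds 8.5% of the genes.

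H3K4me3 was also low at these genes in the D0 and D4 libraries, which the rule did not use. The rule took members from the 47.3% of genes lowest in H3K4me3 at D8. Low ranks in earlier libraries of this mark, and a contrast with genes split off by the same limit, are not evidence about the class. No comparison with all genes under that limit was made. At D0 the median member had 1.58 RPM and ranked at percentile 24.9 of the library, and at D4 it had 1.8 RPM and ranked at 30.0. Genes that carried both marks at D8 had medians of 3.17 and 5.77 RPM at the same stages. At D0, 40 members (3.94%) ranked above the middle of the library, against 242 of those 565 genes. Alx4, a homeobox gene of limb and skull mesenchyme, was among the highest, with 7.76, 5.77 and 6.05 RPM, and the glutamate receptor gene Grik1 had 7.52, 6.13 and 6.28 RPM.

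Between D0 and D4, 44 members had enough H3K4me3 to be compared, of which 14 were at least 2-fold higher (13.6% of all genes compared) and 3 at least 2-fold lower (0.243%). A member enters this comparison only if 1 of its 2 values is high, so the count is not evidence about the class. The 14 included Tac1, which encodes substance P, at 2.85 and 7.93 RPM, and Atoh1, a proneural gene, at 2.30 and 7.21 RPM. The 3 were Hoxc9 and the imprinted genes Dlk1, at 6.98 and 2.16 RPM, and Zdbf2, at 6.73 and 2.16 RPM. Relative to the median change of all compared genes, 2 members were higher and 7 lower (1.5% and 1.18% of all genes). These genes were named after their values were seen.

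H3K27ac was low as well. The median member had 1.26, 1.36 and 1.53 RPM at D0, D4 and D8, where the median gene had 1.90, 2.13 and 2.42 RPM. Its percentile rank was 29.4, 20.6 and 21.5 in the 3 libraries. The genes with H3K27me3 and H3K4me3 had medians of 1.90, 1.48 and 1.91 RPM. H3K27ac below the median gene at D4 and D8 is thus not particular to the members. At D8, 79 members (7.79%) ranked above the middle, and 12 ranked above percentile 75. Of 214 members compared for H3K27ac between D4 and D8, 4 were at least 2-fold higher at D8 and 0 lower. Of 15455 genes compared, 1082 were higher and 5 lower. Sox1 and Nkx2-2, a regulator of ventral neural tube, were among the 4. Sox1 had 1.90, 0.886 and 3.81 RPM of H3K27ac at D0, D4 and D8, and Nkx2-2 had 0.632, 0.590 and 2.92 RPM. The D0 values are 3 reads and 1 read, with Poisson intervals of 0.391 to 5.54 and 0.016 to 3.52 RPM. These intervals cover the D8 values, so no difference from D0 is read from these genes.

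Of 382 members compared for H3K27ac between D0 and D8, 19 were at least 2-fold higher (19.9% of all genes compared) and 27 at least 2-fold lower (2.32%). Relative to the median change of all compared genes, the counts were 8 higher and 115 lower (9.82% and 9.22%), and that median was 0.35 on the log2 scale. Of the 382 members, 227 entered through their D0 value alone and 92 through their D8 value alone, so neither count is evidence about the class. Of the 19, 13 had no read at D0, where the Poisson interval of a count of 0 reaches up to 2.33 RPM, and 2.29 to 2.92 RPM at D8. These D8 values lie close to or above that bound and carry counting error of their own, so no difference is read from these genes. Of the 27, the lowest D0 value was 3.16 RPM, or 5 reads.

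The median level of H3K4me1 was below that of all genes in each library. The median member had 1.75, 2.06 and 2.22 RPM at D0, D4 and D8, and the median gene 2.20, 2.61 and 3.06 RPM. The genes with H3K27me3 and H3K4me3 had medians of 1.996, 2.497 and 2.788 RPM. H3K4me1 below the median gene is thus not particular to the members. Of 415 members compared, 14 were at least 2-fold higher at D8 than at D0 (2.38% of all genes compared) and 0 were at least 2-fold lower (0%). Relative to the median change of all compared genes, which was 0.48 on the log2 scale, 1 was higher and 5 were lower (0.04% and 1.48%). Of the 415, 27 entered through their D0 value alone and 324 through their D8 value alone, so these counts are not evidence about the class either. The 1 gene still higher relative to the median was Gm15698.

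The 14 included Nkx2-2, which had 1.1, 3.03 and 5.11 RPM of H3K4me1 at D0, D4 and D8. Lhx1, a LIM homeobox gene of spinal neurons and kidney, had 1.34, 2.94 and 5.04 RPM, and Gad2 had 2.04, 3.85 and 5.81 RPM. These genes were picked for a higher D8 than D0 value, and the median of all genes has the same order of stages. Relative to that median none of these 3 was 2-fold higher. Prph, which encodes the neuronal filament protein peripherin, had 1.63, 2.85 and 5.54 RPM, and Islr2, a membrane protein of growing axons, had 1.65, 3.76 and 5.96 RPM. Gm15698 had the highest H3K4me1 of the class at D8, 14.0 RPM, after 3.83 RPM at D0 and 9.81 RPM at D4. At these genes H3K27me3 was at or above 3.5 RPM at D4 and D8, as the rule required. Nkx2-2, Lhx1, Gad2 and Prph were named after their values were seen.

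Between H3K4me1 and H3K27ac at D8, marks the rule did not use, the Spearman correlation was 0.0016 over the 1014 members and 0.72 over all genes. Over the 565 genes with H3K27me3 and H3K4me3 it was 0.13. A value far below that of all genes is thus not particular to the members. Each correlation is a description over genes that share 2 libraries. The members span a narrower range of both marks than all genes do.

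**Figure D4:**
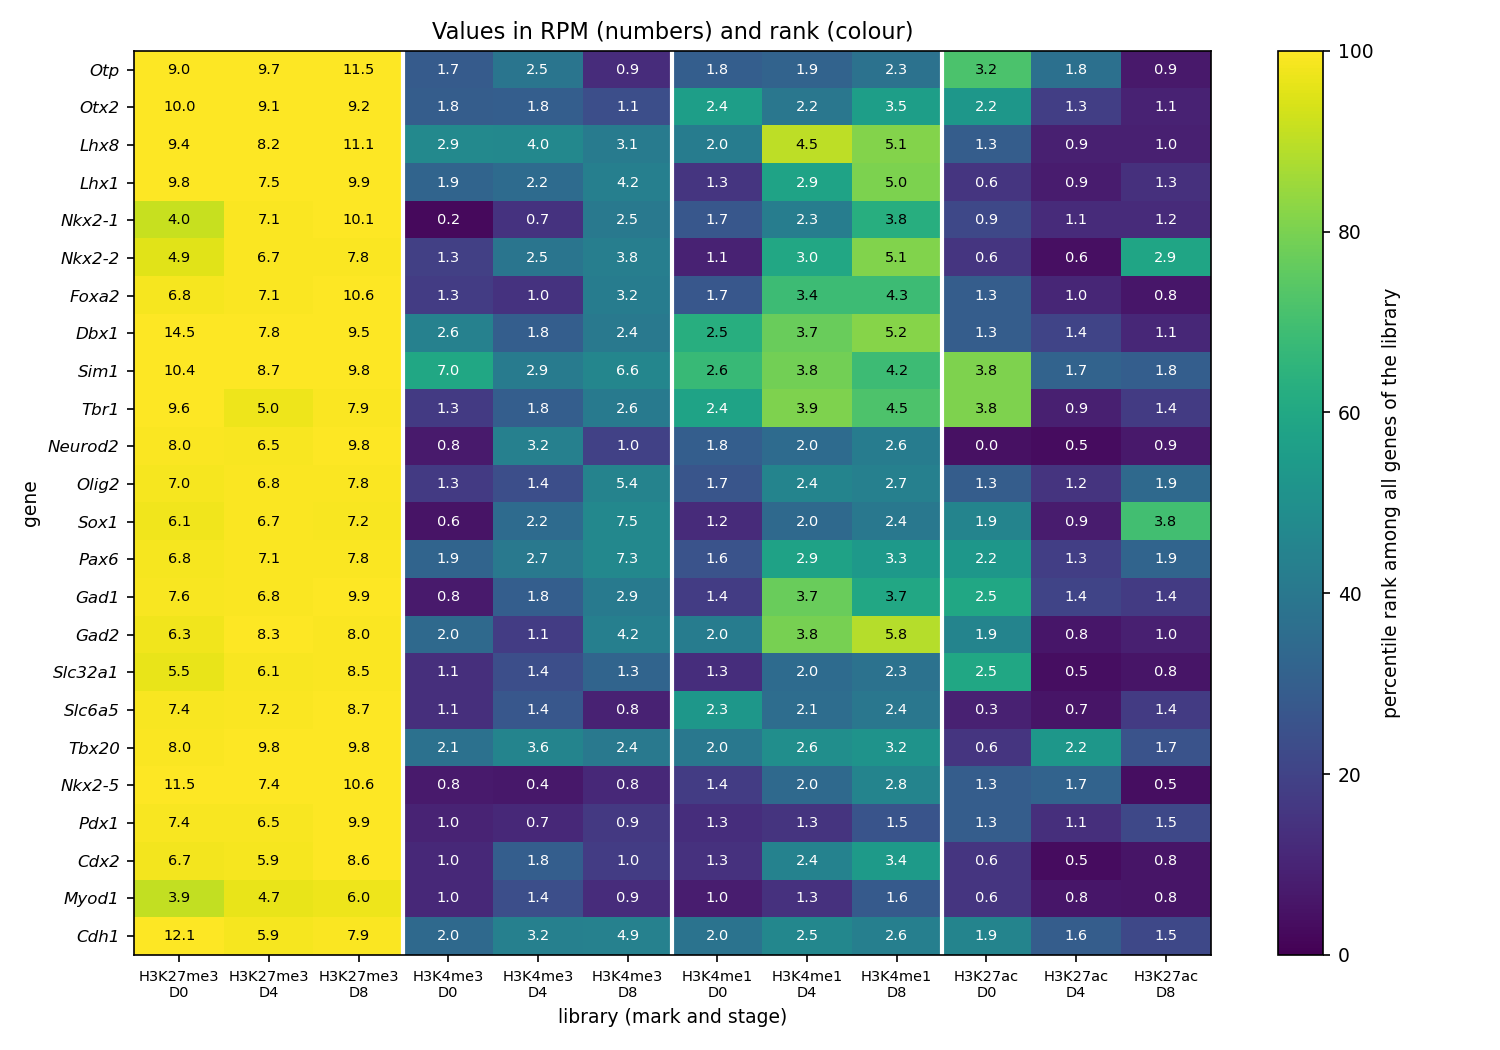
RPM (numbers) and percentile rank within the library (colour) of 24 members in the 12 libraries, with genes as rows and marks and stages as columns. H3K27me3 ranks near the top in every stage, which the rule required at D4 and D8. H3K4me1 at genes such as Lhx8, Lhx1, Nkx2-2 and Gad2 has higher ranks at D4 and D8 than at D0. These are examples picked after their values were seen, and the order is not read as a trait of the class.

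The class has no gap at its edges. Just inside the H3K4me3 limit at D8 lay Pde2a with 7.99 RPM, Atoh7 with 7.98 and Hrk with 7.98. Just outside lay Dlx5 with 8.00 RPM and A930011G23Rik with 8.03. Among the H3K27me3 limits, 1700012B09Rik lay inside with 3.52 RPM at D4, and Cdhr1 outside with 3.47 RPM. Neither the 16 Polycomb and H3K27 demethylase genes nor the 4 neuron markers Dcx, Map2, Syp and Tubb3 held a member. The Polycomb genes had a median H3K4me3 of 12.8 RPM at D0 and 46.0 RPM at D8.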

How the data were processed

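Of 25 labelled libraries, the 12 of the 4 marks at D0, D4 and D8 were used. Per the labels' protocols, fragments of 200 to 400 bp went through 13 cycles of PCR and were read from one end for 50 bases. The submitters' processing notes name bedtools, SAMtools 0.1.19, Bowtie 1.1.0 and CASAVA 1.8.4, and the build mm10. How reads were extended, counted and freed of duplicates is not given in the sources used here. All deposited values are in RPM, a unit inferred from the values, since 93.6% to 95.2% of a column are whole multiples of 1 read within 0.02 of a read. Another 8 value columns could not be matched to a label and stayed out, so ciNSLC, pri-NPC and the inputs are not analysed here.

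From 24453 rows, 27 symbols turned into dates (2 of which pass the rule) and 205 rows at 0 were left out. Levels are compared between genes as deposited, with no length correction. Over all genes the Spearman correlation of H3K27me3 at D8 with gene length was 0.060, and over the members it was -0.157. For the other marks at D8 it was higher over all genes, with 0.326 for H3K4me3, 0.296 for H3K4me1 and 0.203 for H3K27ac. Gene length therefore stands beside the levels of these marks and the H3K4me3 limit of the rule. Symbols were matched to RefSeq GRCm38.p6 (1010 of 1014 members), and 2 members share all values with another gene. Changes are log2((a + c)/(b + c)), with c the 25th percentile of the mark's positive values (H3K4me3 1.44 RPM, H3K27ac 1.53, H3K4me1 1.63, H3K27me3 1.30), which understates the changes of genes with low values. Genes were compared where the larger value reached the mark's median (5.41, 2.18, 2.49 and 1.76 RPM) and were counted from 2-fold. Ranks are percentiles within a library, and intervals of RPM values are exact 95% Poisson intervals of implied reads. Scripts ran in Python 3.11.15 with pandas 2.3.3 and SciPy 1.17.1 and were tested on simulated data.

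Members, families and lists were chosen with earlier results of these data known. The named genes are the 10 with the highest mean H3K27me3 at D4 and D8, the 5 highest and lowest at D0, the 5 highest in H3K27ac at D8, H3K4me1 at D8 and H3K4me3 at D0, the top 3 of the largest families, the 3 nearest to each threshold on either side, fixed marker and Polycomb genes, and genes of the largest groups. Others are named as chosen after their values were seen, as are those in the plot of 24 genes. A few genes that the rule names are not reported here. Alternatives covered the thresholds, normalization, counting error, shared loci, sex chromosomes, left-out rows, pseudocount, filter and centring.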

Additional observations from a re-analysis of the deposited data

How the results depend on the processing

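Over 13 alternative settings, 94 of 152 values stayed within an interval over the member genes or, for counts, within 1.5 times. The other 58 moved further. This interval is not the Poisson interval of reads. It treats the genes as independent, although they share libraries and some share a locus, so it serves only as a yardstick. The median H3K27me3 change stayed positive in each setting that gave one, but the balance of higher and lower counts turned over in some. This held in H3K4me1 and H3K4me3 relative to the median and after quantile normalization. It also held in H3K4me3 with the limit of 5 RPM, at 2 higher and 3 lower. In H3K27ac the balance turned over without the filter. The number of members was 1489 and 742 with H3K27me3 thresholds of 3 and 4 RPM, 763 and 1244 with H3K4me3 limits of 5 and 12 RPM, and 1423 after quantile normalization. No paired analysis was possible because each mark and stage has 1 library. The comparison of CpG content was void because 72.0% of members, under the 80% needed, have a promoter entry. With an H3K27me3 threshold of 3 RPM the share of members at 3.5 RPM or more at D0 was 62.8%, the H3K4me1 rank at D8 34.6, the transcription factor share 12.1%, the X share 2.15%, and 43 members were lower in H3K27ac. At 4 RPM these were 84.1%, 39.5 and 21.7%, and the X share was 0.539%. With an H3K4me3 limit of 5 RPM the H3K4me1 rank was 34.6, with 16 members lower in H3K27ac and 2 higher in H3K4me3 at D4. At 12 RPM the ranks of H3K4me3 at D0 and H3K4me1 were 28.7 and 38, with 31 members higher in H3K27ac and 39 higher in H3K4me3. After quantile normalization the D0 share was 67.6%, the ranks 28.7 and 38, and the members higher and lower were 11 and 109 in H3K27ac, 2 and 4 in H3K4me1, and 39 and 41 in H3K4me3. Requiring the Poisson bounds to clear every threshold left 527 members, with a D0 share of 89.9%, an H3K4me1 rank of 41.1, a transcription factor share of 27.5%, an X share of 0.569%, 10 higher and 11 lower in H3K27ac, and 3 higher in H3K4me3. Autosomes alone gave ranks of 20.4 for H3K27ac and 35.6 for H3K4me1, with 9 higher in H3K4me3, and all rows an H3K4me1 rank of 37.6. With the pseudocount divided by 4 the median H3K27me3 change was 0.26, and higher and lower counts were 41 and 96 in H3K27ac, 70 and 1 in H3K4me1, and 24 and 5 in H3K4me3. With it multiplied by 4 the median was 0.14 and all these counts were 0. Without the filter, 59 were higher and 27 lower in H3K27ac, and 49 were higher and 19 lower in H3K4me3. Relative to the median the counts were 8 and 115 in H3K27ac, 1 and 5 in H3K4me1, and 2 and 7 in H3K4me3. The cause was not tested. The 2-fold counts thus depend on pseudocount and centring. Depth limits H3K27ac at D0 most, with 1582817 reads.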
